A study of Mus musculus with 18 samples.

Results

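The Notch receptors, ligands and targets described here are 10 genes, chosen by name: the receptors Notch1, Notch2, Notch3 and Notch4, the ligands Dll4, Jag1 and Jag2, and the nuclear targets Hes1, Hey1 and Heyl. All 10 were on the array, among 22909 gene symbols, and each was read by a single transcript cluster (the set of probes that summarises 1 gene). Notch receptors are single-pass membrane proteins that are activated by ligands on a neighbouring cell. ADAM proteases and the gamma-secretase complex then cut the receptor, and the freed intracellular domain joins RBPJ and Mastermind-like proteins in the nucleus and turns on genes of the Hes and Hey repressor families. In the kidney the pathway is known for its role in nephron patterning, and Dll4 with Notch1 and Notch4 for their role in vessels.

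The study sorted the main cell types of the glomerulus, the filtering tuft of the kidney, from mice lacking Cd2ap and from controls. Cd2ap encodes an adaptor protein of the podocyte slit diaphragm, and its loss is used as a mouse model of focal segmental glomerulosclerosis. Sieved glomeruli of mice at 5 weeks of age were dissociated, and GFP-positive cells were collected by flow cytometry. The 18 arrays form 6 groups of 3: endothelial, mesangial and podocyte cells, each with genotype CD2AP-/- (mutant) or wild type. Each cell type came from a GFP reporter line of its own, Tie2-GFP for endothelial and Meis1-GFP for mesangial cells, so a difference between cell types is also one between reporter lines and both cannot be told apart. The titles call the mesangial controls control and their genotype label reads wildtype, while the table's column names mark them +:-, which reads as heterozygous and differs from the +|+ or +l+ of the other controls. The sources used here do not settle this. If these mice were heterozygous, each comparison of wild type mesangium with another wild type cell type would also be one between Cd2ap genotypes, and both cannot be told apart. Each mesangial genotype difference would then compare mutant with heterozygous mice. The same would hold for the mesangial side of each difference between genotype effects. Replicates were described as biological. Whether an array held 1 mouse or a pool was not stated in the labels, and the arrays of each group are called A, B and C here in column order.

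Several facts of the arrays bear on the Notch genes. The table holds RMA signals on a linear scale, background-corrected and normalized between arrays, with array medians of 62.8 to 71.6. A signal of 100 was the minimum used to take a gene into a test. Between arrays of one group the correlation of log2 signal over all clusters was 0.967 to 0.992, with the lowest values among the mutant podocyte arrays. The defining markers of each sorted type reached 100 in at least 1 array of that type in both genotypes: 10 of 10 podocyte, 11 of 11 endothelial and 8 of 8 mesangial markers. This count does not separate the types. Wild type mesangial arrays also gave 10 of 10 podocyte and 11 of 11 endothelial markers. Wild type podocyte arrays gave 11 of 11 endothelial and 8 of 8 mesangial markers, and mutant ones 10 of 11 and 7 of 8. Endothelial arrays gave fewer, 4 or 5 of 10 podocyte and 2 of 8 mesangial markers. The summed signal of each list was highest in its own type. Cd2ap itself did not check the genotype labels: its signal was 891, 966 and 920.4 in the mutant endothelial arrays against 839.8, 859 and 757 in the wild type ones, 819, 870.4 and 797 against 922, 1037 and 1123 in mesangial cells, and 1512, 1503 and 1478 against 2108, 1670.4 and 1546 in podocytes. Mutant therefore means labelled mutant throughout.

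Other cell types left a trace in some arrays. Wild type mesangial array C stood apart, with a summed signal of 4595 for 10 podocyte markers (A and B had 1090 and 1250), of 8298 for 11 endothelial markers (2826 and 3208) and of 7253 for 4 erythroid markers (584 and 296). In the podocyte arrays the endothelial sum was 2939, 1427 and 1019 in mutants and 5293, 6244 and 4731 in wild type, so the groups did not overlap. The sum of 6 smooth muscle and juxtaglomerular markers ran the other way, at 3023, 2426 and 1081 in mutant podocytes and 816 to 830 in wild type, and that of 3 parietal epithelial markers was 497 to 732 against 305 to 329. These 3 sums, and the mesangial one given below, separate the same arrays as the podocyte genotype results, and their part in those results was not tested. In bulk arrays, a lower number of cells of a type and less RNA per cell cannot be told apart.

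Promoter sequences are shown for the 4 receptors and Dll4, the genes with a promoter entry that were called in at least 1 comparison of wild type cell types below, and for Hey2, a target outside the 10 genes that passed the genotype screen in endothelium with all arrays (adjusted p = 0.182, limma). Each is RefSeq sequence of GRCm38.p6, from 250 bases before to 50 after the annotated start of the gene, 5′ to 3′ on the gene's own strand, with motif matches in capitals. Both strands were searched for TGGGAA (the core bound by RBPJ, TTCCCA on the other strand), CACGTG (the E box) and CACGCG (an N-box-like site of Hes and Hey proteins, CGCGTG on the other strand). CCGGAA, the core of ETS factor sites, was searched after the data had been seen.

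Notch1, minus strand, chr2:26503773-26504072: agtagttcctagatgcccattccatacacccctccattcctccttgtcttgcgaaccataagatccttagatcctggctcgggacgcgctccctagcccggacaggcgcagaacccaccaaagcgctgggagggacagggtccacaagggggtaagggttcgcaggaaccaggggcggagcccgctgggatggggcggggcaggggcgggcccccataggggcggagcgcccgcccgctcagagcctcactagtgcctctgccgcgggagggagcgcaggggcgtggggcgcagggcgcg
Notch2, plus strand, chr3:98013288-98013587: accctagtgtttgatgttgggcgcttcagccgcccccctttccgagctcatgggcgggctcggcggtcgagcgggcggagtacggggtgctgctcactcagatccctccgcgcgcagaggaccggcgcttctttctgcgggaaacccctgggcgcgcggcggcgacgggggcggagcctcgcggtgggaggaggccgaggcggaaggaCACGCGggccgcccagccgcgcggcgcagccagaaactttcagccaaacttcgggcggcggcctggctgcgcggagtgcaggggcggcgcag
Notch3, minus strand, chr17:32166841-32167140: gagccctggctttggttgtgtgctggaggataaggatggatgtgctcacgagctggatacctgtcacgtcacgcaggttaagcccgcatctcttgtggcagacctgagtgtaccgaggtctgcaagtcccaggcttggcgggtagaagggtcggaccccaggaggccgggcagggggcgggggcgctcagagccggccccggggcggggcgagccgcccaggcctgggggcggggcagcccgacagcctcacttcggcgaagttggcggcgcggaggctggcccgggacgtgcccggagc
Notch4, plus strand, chr17:34564045-34564344: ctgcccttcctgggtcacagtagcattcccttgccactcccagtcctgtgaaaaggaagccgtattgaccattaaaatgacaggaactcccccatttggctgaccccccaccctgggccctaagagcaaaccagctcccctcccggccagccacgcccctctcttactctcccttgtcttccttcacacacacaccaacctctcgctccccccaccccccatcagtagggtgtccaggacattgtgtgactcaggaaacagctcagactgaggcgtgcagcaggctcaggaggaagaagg
Dll4, plus strand, chr2:119325534-119325833: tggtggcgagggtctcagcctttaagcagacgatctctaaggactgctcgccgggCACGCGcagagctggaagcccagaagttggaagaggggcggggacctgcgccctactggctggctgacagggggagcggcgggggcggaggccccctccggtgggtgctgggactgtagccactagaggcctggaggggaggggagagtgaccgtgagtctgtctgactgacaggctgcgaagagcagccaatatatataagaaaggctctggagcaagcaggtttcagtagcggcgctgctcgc
Hey2, minus strand, chr10:30842734-30843033: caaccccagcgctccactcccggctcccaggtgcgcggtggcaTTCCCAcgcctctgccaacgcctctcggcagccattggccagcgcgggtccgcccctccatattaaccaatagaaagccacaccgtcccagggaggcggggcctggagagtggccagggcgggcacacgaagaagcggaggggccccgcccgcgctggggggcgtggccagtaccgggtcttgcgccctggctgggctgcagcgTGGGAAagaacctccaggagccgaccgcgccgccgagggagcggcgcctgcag

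Of the 10 genes, 7 have a promoter entry in the table used; Hes1, Hey1 and Heyl have none. Among all 32851 promoters, 25.6% hold the RBPJ core, 7.15% the E box, 9.27% the N-box-like letters and 14.9% the ETS core. CACGCG occurs at base 209 of the Notch2 window and at base 56 of the Dll4 window. The Jag1 window has it at bases 2 and 80, and the Jag2 window at base 269. The windows of Notch1, Notch3 and Notch4 hold none of the 4 motifs, and no window of the 7 genes holds the RBPJ core, the E box or the ETS core. Hey2 holds the RBPJ core at bases 44 and 248. The GC content of the 7 windows was 55.7% to 86.0%, with a median of 52.7% over all promoters. A match is only a run of letters in the window.

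The first question was in which glomerular cell type each Notch gene was highest. Among wild type arrays, Notch1, Notch4, Dll4 and Hey1 were higher in endothelium than in mesangium, Notch2 was highest in podocytes, and Notch3 and Heyl were higher in mesangium than in endothelium. Calls here need an adjusted p under 0.05 (limma with Benjamini-Hochberg adjustment over all clusters tested) and a fold over 1.5. The 9 wild type arrays entered a single fit.

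**Figure D1:**
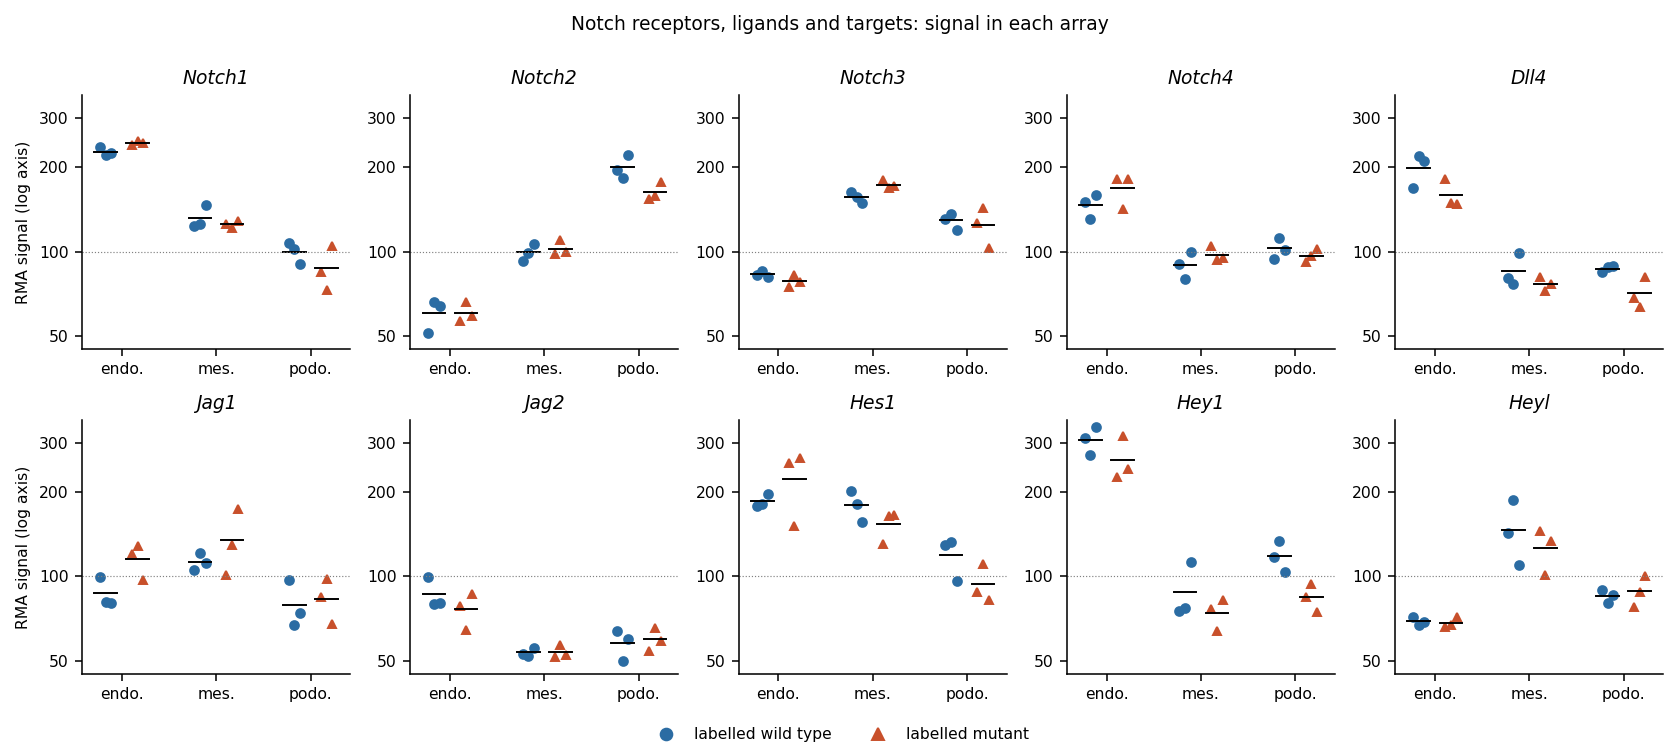
RMA signal (log axis) of the 10 Notch genes in each array, by cell type (endo., endothelial; mes., mesangial; podo., podocyte) and genotype label; circles are wild type arrays, triangles mutant arrays, black bars group means (n = 3) and the dotted line the minimum of 100. Notch1, Dll4 and Hey1 sit highest in endothelial arrays, Notch2 in podocyte arrays, and Jag2 lies under 100 in every array.

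Notch1, the receptor best known in developing and sprouting vessels, had signals of 235, 221 and 224 in wild type endothelial arrays, 123, 126 and 146 in mesangial arrays and 107, 102 and 90.0 in podocyte arrays. The 3 cell types did not overlap. Endothelium was 0.79 above mesangium on the log2 scale (SE 0.10, adjusted p = 0.000312, limma) and podocytes were 1.19 below endothelium (log2 difference -1.19, SE 0.10). Podocytes stood -0.40 from mesangium, a difference with an adjusted p of 0.0162 but a fold under 1.5. In mutant arrays the order was the same: 239, 247 and 244 in endothelium, 125, 122 and 128 in mesangium and 84.4, 72.7 and 105 in podocytes.

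Notch2, the receptor required for the proximal nephron, showed the opposite order. Its signals were 196, 183 and 222 in wild type podocytes, 92.8, 98.9 and 106 in mesangial cells and 51.4, 66.2 and 63.9 in endothelium. Again no array of one type reached another type. Podocytes lay 1.01 above mesangium (SE 0.12, adjusted p = 0.000232, limma) and 1.73 above endothelium (SE 0.12, adjusted p = 6.09e-06, limma). Only in endothelial arrays was Notch2 under 100 throughout, in both genotypes, so its level there is a low signal and the fold may be compressed by array background.

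Notch3, the receptor of pericytes and vascular smooth muscle, was highest in mesangial cells, at 163, 157 and 149. Wild type podocytes had 131, 137 and 119.8 and endothelium 82.6, 85.3 and 80.8. Endothelium was -0.91 from mesangium (SE 0.08, adjusted p = 3.83e-05, limma) and podocytes 0.64 above endothelium (SE 0.08, adjusted p = 0.00031, limma). Notch3 was under 100 in every endothelial array of both genotypes, so its level there is a low signal and both folds may be compressed by array background. Podocytes and mesangium differed by -0.27, with an adjusted p of 0.0381 (limma) and a fold under 1.5. The sum of 8 mesangial markers was 3595 to 4477 in wild type podocyte and 674 to 734 in wild type endothelial arrays. In wild type mesangial arrays it was 10620 to 11749. Its part in the Notch3 differences was not tested.

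Notch4, a receptor largely restricted to endothelium, had 149.8, 131 and 159 in wild type endothelial arrays. Mesangial arrays gave 90.1, 79.6 and 99.5 and podocyte arrays 94.4, 112 and 101, 2 ranges that overlap. Endothelium was 0.71 above mesangium (SE 0.12, adjusted p = 0.00147, limma). The podocyte difference from endothelium was -0.51 (adjusted p = 0.00674, limma), short of a fold of 1.5, and it reached -0.59, past that fold, without wild type endothelial array B.

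Dll4, the arterial Notch ligand, was at 168, 219 and 210.2 in wild type endothelium and under 100 in every mesangial and podocyte array. The difference was 1.22 over mesangium (SE 0.13, adjusted p = 8.12e-05, limma) and -1.19 from endothelium to podocytes (SE 0.13, adjusted p = 8.64e-05, limma). Podocytes and mesangium differed by 0.04, with a 95% interval of -0.25 to 0.32, at 84.3, 87.9 and 88.5 and 80.4, 76.8 and 98.4; both are low signals. Wild type mesangial array C, which carries the endothelial marker signal given above, has the highest Dll4, Notch1 and Hey1 signals of the 3 wild type mesangial arrays. Without it, the endothelial excess over mesangium was 1.33 for Dll4, 0.86 for Notch1 and 2.00 for Hey1.

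Jag1, the ligand mutated in Alagille syndrome, gave 106, 121 and 112 in wild type mesangial cells, 99.8, 80.9 and 80.6 in endothelium and 97.1, 66.9 and 74.4 in podocytes. The mesangial arrays were all above those of the other types, which overlapped. Podocytes stood -0.52 from mesangium (adjusted p = 0.0259, limma), under a fold of 1.5. That difference passed the call without wild type podocyte array A (-0.67) and with array medians subtracted (-0.60, adjusted p = 0.0164, limma). Jag2 did not reach 100 in any of the 18 arrays and was tested nowhere. Its endothelial signals were 99.9, 80.1 and 80.3 in wild type and 78.3, 64.5 and 86.8 in mutant arrays, and all other arrays lay between 49.9 and 65.6.

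Hes1, the broadly expressed repressor, did not separate endothelium from mesangium in wild type, with signals of 178, 181 and 196 and 201, 182 and 157. The difference of 0.05 had a 95% interval of -0.27 to 0.36. Podocytes were lower at 129.9, 132 and 96, by -0.60 against mesangium (SE 0.14, adjusted p = 0.0115, limma) and by -0.65 against endothelium (SE 0.14, adjusted p = 0.0052, limma). These calls rest on single arrays: without wild type podocyte array C the differences were -0.45 and -0.50, and without wild type mesangial array A the first was -0.51, each under a fold of 1.5. Repeated quantile normalization also took the first under that fold, to -0.57.

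Hey1, a target repressor of arterial endothelium, had the largest wild type difference of the genes tested, 1.82, close to the 1.73 of Notch2. With single arrays left out their ranges overlapped, at 1.72 to 2.00 for Hey1 and 1.62 to 1.80 for Notch2. Hey1 signals were 311, 271 and 340.5 in wild type endothelium. Mesangial arrays were at 75.4, 77.1 and 112 and podocyte arrays at 118, 134 and 103. Endothelium exceeded mesangium by 1.82 (SE 0.17, adjusted p = 3.7e-05, limma) and podocytes lay -1.38 from endothelium (SE 0.17, adjusted p = 0.000181, limma). The podocyte excess over mesangium, 0.44, missed the call (adjusted p = 0.0797, limma) and became 0.63 (adjusted p = 0.00872, limma) without mesangial array C. The endothelial marker sum was 4731 to 6244 in wild type podocyte arrays and 2826 and 3208 in mesangial arrays A and B. In mutants, with podocyte sums of 1019 to 2939 and mesangial sums of 2610 to 2914, the Hey1 difference was 0.18. Hey1 was under 100 in every mutant podocyte and mesangial array (means 84.3 and 74.3), so that value compares low signals. The part of the endothelial markers and of the low signals was not tested.

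Heyl, the related repressor of mural cells, was highest in mesangial cells. Its signals were 142, 187 and 109.7 in wild type mesangial arrays, 71.5, 66.9 and 68.9 in endothelium and 89.7, 80.2 and 86.2 in podocytes. Endothelium was -1.05 from mesangium (SE 0.16, adjusted p = 0.00104, limma), and podocytes -0.75 (SE 0.16, adjusted p = 0.00828, limma). Without wild type mesangial array B the podocyte difference was -0.55, under a fold of 1.5.

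Counted over the 10 genes, 9 passed the signal minimum in the wild type fit and 1, Jag2, did not. Between podocytes and mesangium 3 were called (Notch2 higher, Hes1 and Heyl lower), where 15.1% of all clusters tested were called. Between podocytes and endothelium 6 were called, against 21.5% of all clusters: Notch2 and Notch3 higher, Notch1, Dll4, Hes1 and Hey1 lower in podocytes. Between endothelium and mesangium 7 were called, against 17.5% of all: Notch1, Notch4, Dll4 and Hey1 higher and Notch2, Notch3 and Heyl lower in endothelium. Dll4 reached 100 only in endothelial arrays, and Jag1 and Heyl, among wild type arrays, only in mesangial arrays, so they entered the fit through the type where they were high. The median size of the log2 difference over the 9 genes was 0.44, 0.65 and 0.79 in the 3 comparisons, and over all clusters 0.22, 0.26 and 0.23.

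The mutant arrays give the same cell type comparisons in other arrays. Between endothelium and mesangium the same 7 genes were called in the same direction, against 17.3% of all clusters: Notch1 0.96, Notch4 0.78, Dll4 1.05 and Hey1 1.80 on the positive side, and Notch2 -0.76, Notch3 -1.15 and Heyl -0.87 on the negative side. In mutant arrays Dll4 and Hey1 reached 100 only in endothelium, so in both comparisons with endothelium they entered the fit through the type where they were high, and their calls add no support to those in wild type. Between podocytes and endothelium 7 were called, against 30.0% of all: Notch2 1.43, Notch3 0.65, Notch1 -1.50, Notch4 -0.79, Dll4 -1.17, Hes1 -1.22 and Hey1 -1.62. Array medians shift this last comparison by 0.127 on the log2 scale. With array medians subtracted Notch3 was 0.53, under a fold of 1.5, and without mutant podocyte array B it was 0.54.

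Between mutant podocytes and mesangium 3 genes were called, against 18.5% of all clusters: Notch2 at 0.67, Jag1 at -0.68 and Hes1 at -0.71. None of these calls is firm. With array medians subtracted Notch2 was 0.57, under a fold of 1.5, while Notch1 (-0.63) and Heyl (-0.59) were called; Notch1 was also called after repeated quantile normalization (-0.59). With no signal minimum neither Jag1 nor Hes1 was called. Jag1 gave 101, 129 and 175 in mutant mesangial and 84.4, 97.9 and 67.7 in mutant podocyte arrays, and Hes1 130.0, 165 and 166 and 88.3, 111 and 82.1. Without mutant mesangial array C the adjusted p was 0.125 for Jag1 (difference -0.47) and 0.103 for Hes1 (limma), and without mutant podocyte array A 0.0557 and 0.0654, which left 1 called gene in each case. Leaving out mutant mesangial array B gave 0.0898 and 0.107, and mutant podocyte array C 0.116 and 0.1. Jag1 alone also missed the call without mutant endothelial array A or B (0.0568 and 0.0516). Single arrays also brought in others: Notch1 was called at -0.67 and Heyl at -0.60 without mutant podocyte array C, Notch3 at -0.60 without mutant podocyte array B and Heyl at -0.66 without mutant mesangial array B. Hes1 in mutant endothelium was spread widely, at 254, 151 and 263; without array B it exceeded mesangium by 0.76 and was called (adjusted p = 0.0146, limma).

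**Figure D2:**
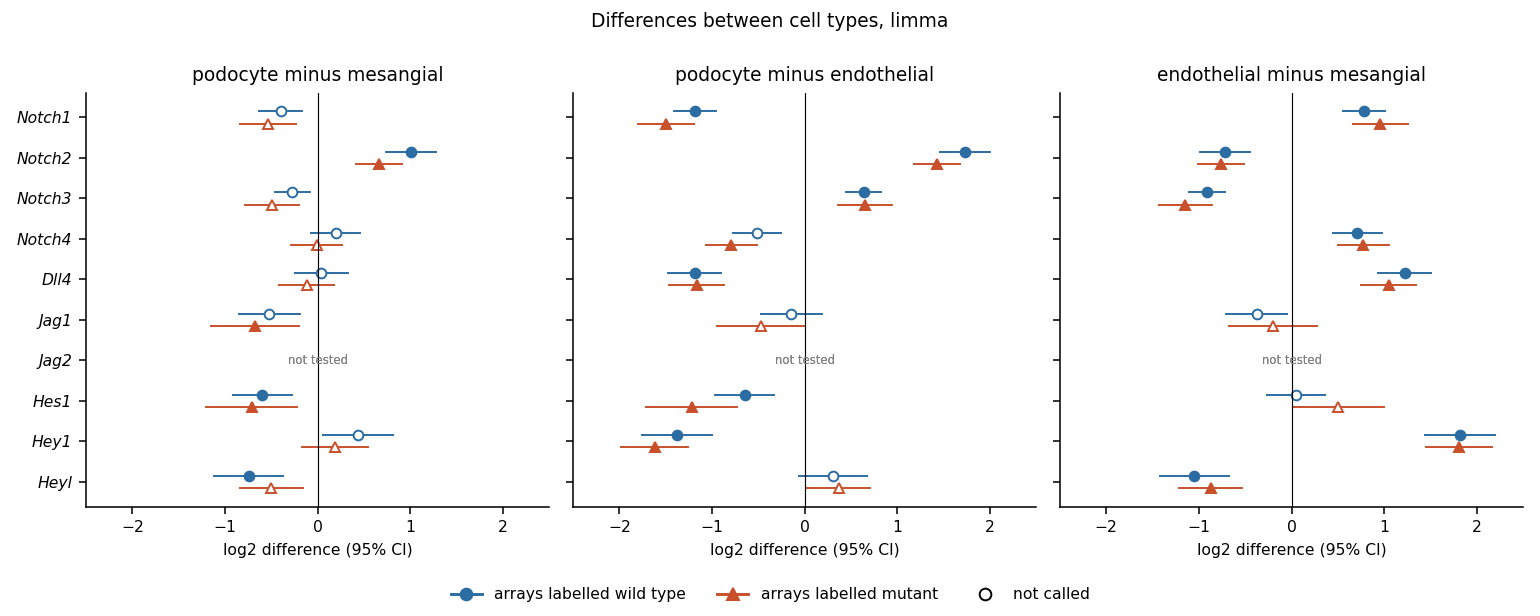
Log2 difference between cell types for each Notch gene, with the 95% interval from limma, in wild type arrays (circles, 9 arrays) and mutant arrays (triangles, 9 arrays); filled symbols passed the call and Jag2 was not tested. The differences of endothelium from mesangium have the same sign in both genotypes for the 7 called genes, of which Dll4 and Hey1 entered the mutant fit through endothelium alone; Notch3, for example, is at -0.91 and -1.15.

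Likeness across the 18 arrays, as Pearson's r of log2 signal with clusters of other genes, was read as a description; the 18 points share their cell types. The clusters most like Notch1 were those of Srp19 (r = 0.983), Klf3 (0.973) and 5730494M16Rik (0.973). For Notch2 they were Arhgap28 (0.981), Arhgap24 (0.976) and Ctnnal1 (0.975). Notch3 ran closest to Rgs5 (0.983), a pericyte gene, to Cd248 (0.979) and to the angiotensin receptor Agtr1a (0.976). Notch4 ran closest to Robo4 (0.964), an endothelial receptor, Klf4 (0.963) and Sele (0.961), the endothelial adhesion molecule E-selectin. Dll4 was matched by 4930435H24Rik (0.975), Tmem26 (0.971) and Ica1 (0.969), and Hey1 by Rnf157 (0.98), Mpped2 (0.978) and Sema6a (0.978). Lower values led for Heyl, with E130203B14Rik (0.948), Olfr558 (0.94) and Coro2a (0.939), for Jag1, with Tmem43 (0.922), Psmd8 (0.879) and Anxa6 (0.86), and for Hes1, with Frmd4a (0.911), Ep400 (0.908) and Id3 (0.901). Among the 10 genes themselves, Dll4 and Hey1 had r = 0.93 and Notch1 and Notch2 r = -0.92.

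The second question was whether the Notch genes differed between mutant and wild type within a cell type. In none of the 3 cell types did a Notch gene pass either rule, the screen of the study's methods (unadjusted p under 0.05 and fold over 1.5) or an adjusted p under 0.05. In mesangial cells 8 of the 10 genes were tested and 0 passed, where 5.19% of all clusters passed the screen and 2.92% the adjusted p. For podocytes 7 were tested and 0 passed, against 5.61% and 0.0578%. For endothelium 6 were tested and 0 passed, against 3.82% and 1.29%. At an unadjusted p under 0.05 alone (limma), 0, 1 and 2 Notch genes were counted in the same order, where 21.7%, 14.3% and 18.5% of all clusters were.

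**Figure D3:**
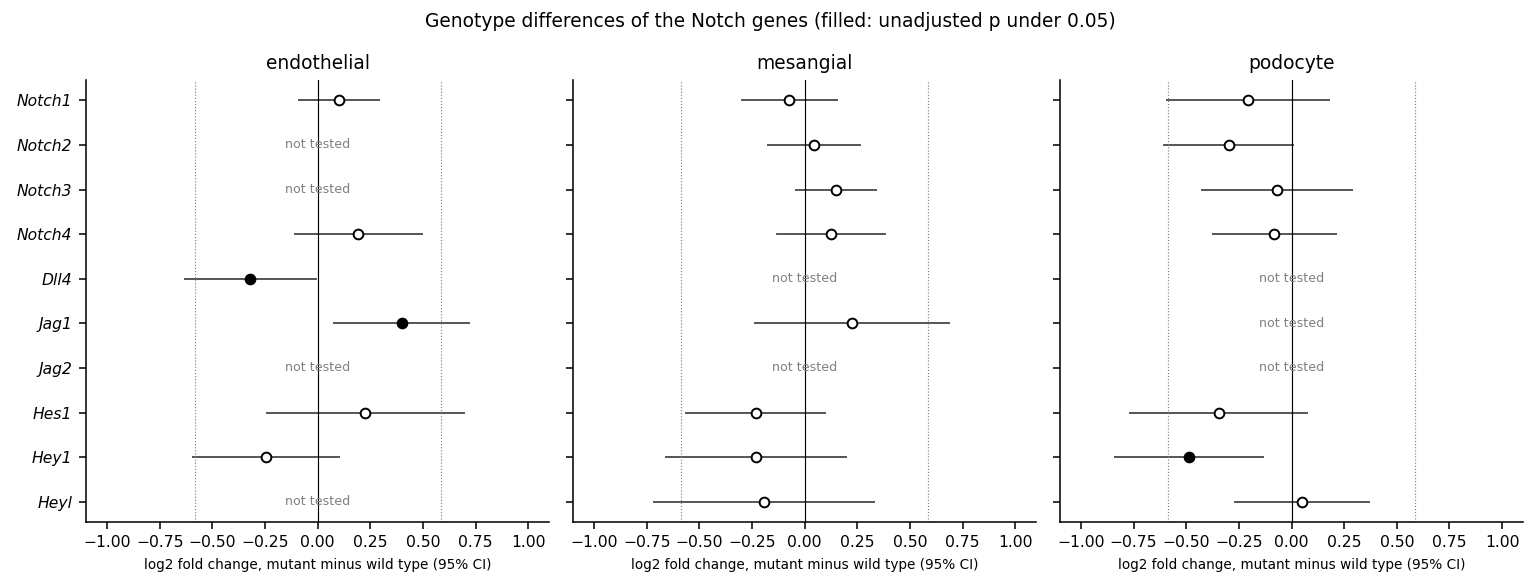
Log2 fold change of each Notch gene, mutant minus wild type, with its 95% interval from limma on 6 arrays per cell type; dotted lines mark a fold of 1.5 and filled points an unadjusted p under 0.05. Hey1 in podocytes (-0.49), Dll4 in endothelium (-0.32) and Jag1 in endothelium (0.40) are the filled points, of which Hey1 reached 100 only in wild type and Jag1 only in mutant arrays; no gene passed the screen.

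Among the receptors the genotype differences were small. Notch1 was 0.10 in endothelium (95% interval -0.09 to 0.29), -0.07 in mesangium (-0.30 to 0.15) and -0.21 in podocytes (-0.59 to 0.18). In endothelium each mutant array lay above each wild type array for Notch1. The share of all clusters whose genotype groups do not overlap was not counted, so a lack of overlap is a description only. Notch2 in mutant podocytes gave 154, 157 and 177, each array below each wild type array, a fold change of -0.30 with an unadjusted p of 0.055 and an adjusted p of 0.359 (limma). In mesangial cells Notch2 was 0.05 (-0.17 to 0.26), and in endothelium it was under the minimum. Notch3 in mesangial cells, 179.7, 169 and 171 in mutants, lay above every wild type array, by 0.15 (SE 0.08, adjusted p = 0.334, limma). Notch3 in podocytes was -0.07 (-0.42 to 0.29), and in endothelium it was under the minimum. Notch4 was 0.19 in endothelium (-0.11 to 0.49), where mutant arrays had 182, 142 and 181 and the groups overlapped, 0.12 in mesangium and -0.08 in podocytes. In mesangium Notch4 entered the test only through mutant array A, at 105.

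The 2 ligands tested in endothelium had values of opposite sign, and neither passed a call. Dll4 gave 181, 149 and 147 in mutant and 168, 219 and 210.2 in wild type endothelial arrays, and the groups overlapped at 1 mutant array. The fold change was -0.32 (SE 0.14, unadjusted p = 0.0459, adjusted p = 0.265, limma), with adjusted p between 0.114 and 0.526 when single arrays were left out. Jag1 gave 120.4, 128 and 96.9 and 99.8, 80.9 and 80.6, also with overlap, and a fold change of 0.40 (SE 0.14, unadjusted p = 0.0206, adjusted p = 0.199, limma; 0.109 to 0.449 with single arrays left out). All 3 wild type endothelial arrays were under 100 for Jag1, which entered this test only through mutant arrays A and B. Jag1 in mesangial cells was 0.23 with a wide 95% interval of -0.23 to 0.68; mutant array C, at 175, was above all other mesangial arrays.

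Of the targets, Hey1 had the lowest unadjusted p. In podocytes its signals were 84.4, 93.9 and 74.8 in mutant and 118, 134 and 103 in wild type arrays, and the groups did not overlap. All 3 mutant arrays were under 100, so Hey1 entered this test only through its wild type arrays. The fold change was -0.49 (SE 0.15, unadjusted p = 0.0128, adjusted p = 0.229, limma; 0.163 to 0.573 with single arrays left out). The endothelial marker sums of these arrays, given above, were lower in mutants too, with all 11 markers reaching 100 in a wild type podocyte array and 10 in a mutant one (Esam did not), while the smooth muscle and juxtaglomerular and the parietal epithelial sums were higher; the part of those cells in the Hey1 signal was not tested. Dll4 in podocytes, under 100 in all 6 arrays and so untested, followed the same order, at 68.3, 63.5 and 81.3 in mutants.

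**Figure D4:**
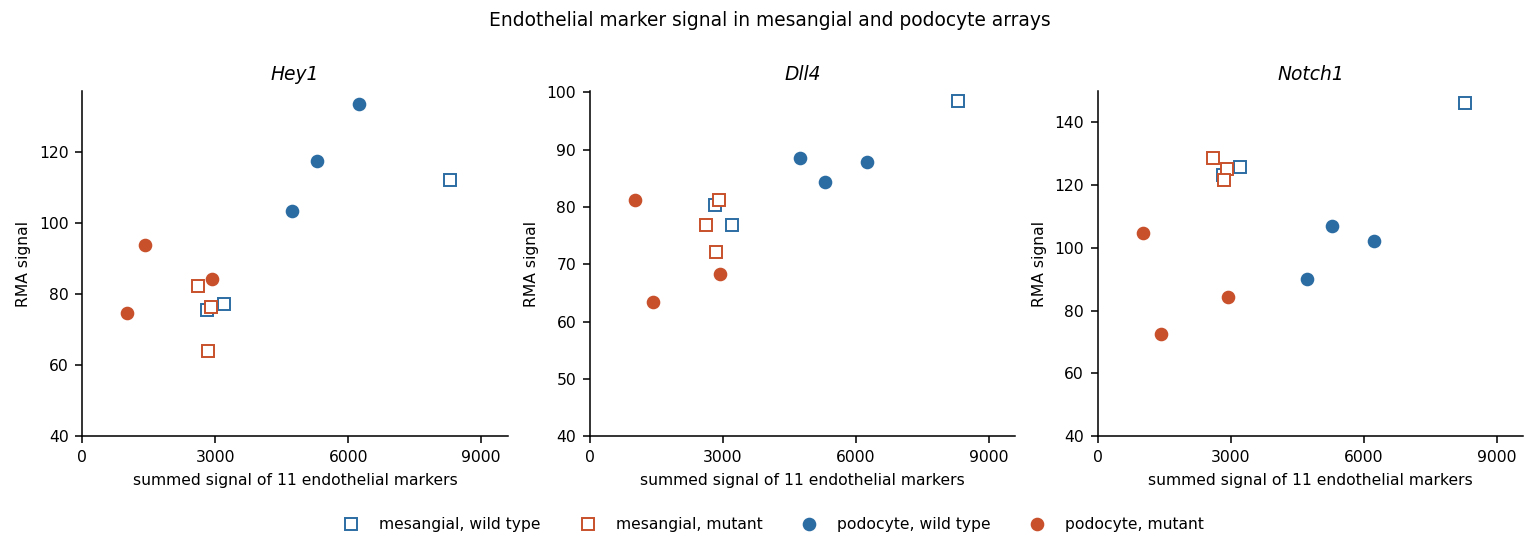
RMA signal of Hey1, Dll4 and Notch1 against the summed signal of 11 endothelial markers in the 12 mesangial (squares) and podocyte (circles) arrays, by genotype label; vertical axes start at 40. The 3 wild type podocyte arrays, with sums of 4731 to 6244, have higher Hey1 than the 3 mutant podocyte arrays, with sums of 1019 to 2939, and wild type mesangial array C lies farthest right. Dll4 also separates these podocyte groups, while Notch1 overlaps between them. Mutant podocyte array C, with the lowest sum, has the highest Notch1 and Dll4 of the mutant podocyte arrays.

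Hey1 in endothelium was 226, 316 and 241 in mutants, -0.25 from wild type (95% interval -0.59 to 0.10), with overlap. In mesangial cells it was -0.23, and there only wild type array C exceeded 100. Hes1 was 0.23 in endothelium, where mutant array B lay below all wild type arrays and A and C above them. It was -0.23 in mesangium and -0.35 in podocytes, with adjusted p of 0.386 and 0.426 (limma). Heyl in mesangial cells was 145, 101 and 133 in mutants, -0.19 with a 95% interval of -0.72 to 0.33. In podocytes it was 0.05, where only mutant array C, at 100.3, reached 100. In each of the 3 cell types the intervals reach beyond a fold of 1.5 for several of these genes, so 3 arrays a group do not bound every difference within that fold.

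Whether a genotype effect differed between cell types was tested in a fit of all 18 arrays. For podocytes against mesangium 0 of 9 Notch genes passed an adjusted p of 0.05, where 0.717% of all clusters did. Podocytes against endothelium gave 0 of 9 (2.11% of all) and endothelium against mesangium 0 of 9 (1.07% of all). At an unadjusted p under 0.05 the counts were 1, 0 and 0 (limma), where 12%, 23.4% and 15.9% of all clusters passed. The single gene was Notch2, whose genotype effect in podocytes was -0.34 from that in mesangium (SE 0.16, unadjusted p = 0.0461, adjusted p = 0.402, limma). Hes1 had the largest difference, -0.57 between its effects in podocytes and endothelium, with a 95% interval of -1.16 to 0.01 (adjusted p = 0.222, limma).

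The rest of the pathway was read from a list of 63 other genes: further ligands, the enzymes of receptor cleavage and glycosylation, the nuclear complex with its corepressors, proteins of endocytosis and turnover, and other targets. In mesangial cells 41 were tested and 2 passed the screen, both lower in mutants, at 4.88% of the list against 5.19% of all clusters. In podocytes 48 were tested and 4 passed, all lower, 8.33% against 5.61%. In endothelium 48 were tested, with 1 higher and 1 lower, 4.17% against 3.82%. The median log2 fold change of the list was -0.09, -0.15 and 0.10 in the 3 cell types, and over all clusters -0.02, -0.04 and 0.07.

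**Figure D5:**
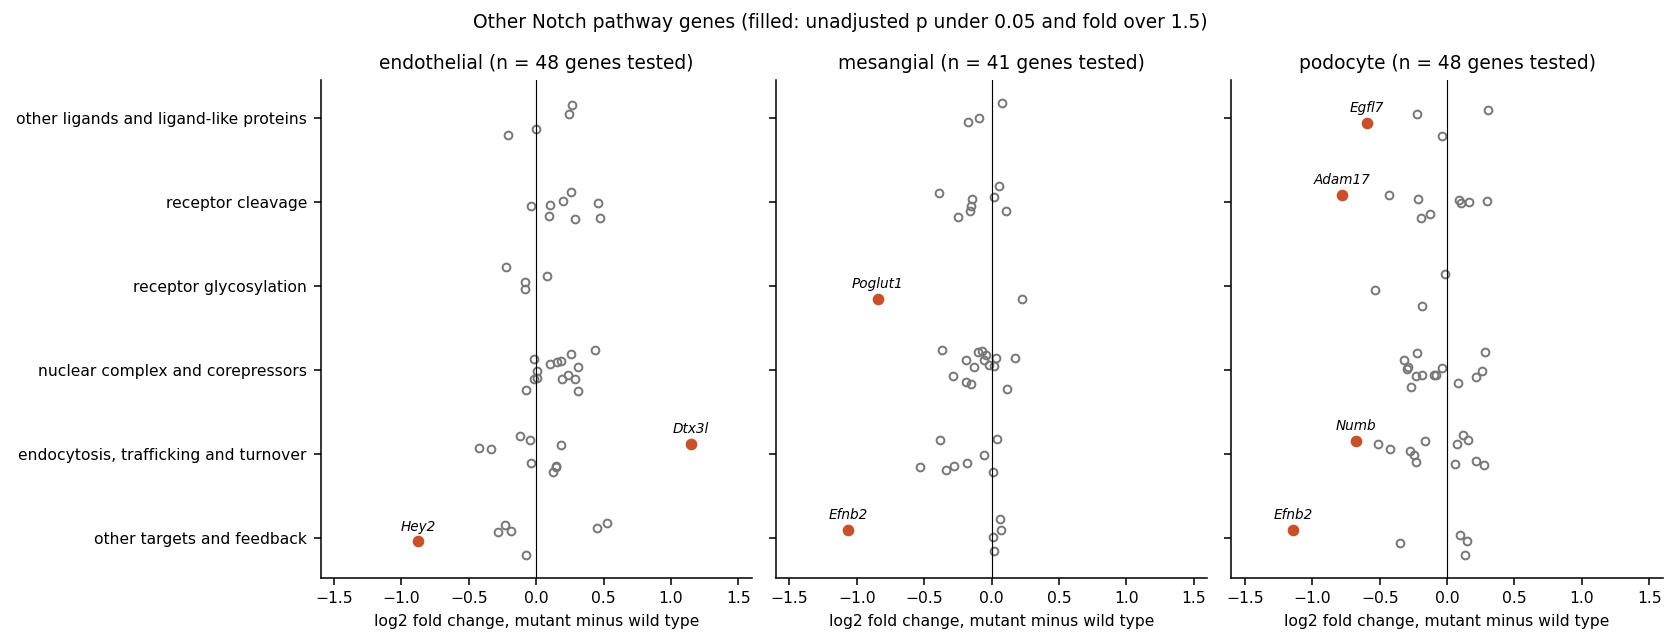
Log2 fold change, mutant minus wild type, of the other Notch pathway genes tested in each cell type, grouped by role (points are spread vertically for legibility); filled points passed an unadjusted p under 0.05 with a fold over 1.5. Efnb2 is the filled point at the bottom left in both mesangial cells (-1.06) and podocytes (-1.14), and Dtx3l the one on the right in endothelium (1.15).

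Efnb2, which encodes ephrin-B2, an arterial ligand and known Notch target, had the largest fold change of the list in mesangial cells. Its signals were 878, 928 and 890.0 in mutant and 1803, 1788 and 2050.5 in wild type arrays, far apart. The fold change was -1.06 (SE 0.09, adjusted p = 0.00492, limma), and -0.999 without wild type array C. In podocytes Efnb2 was 840.5, 769 and 275 in mutants and 1401, 1241 and 1095 in wild type, all mutant arrays lower, but with a spread that left the fold change of -1.14 at SE 0.40 and an adjusted p of 0.271 (limma). With single arrays left out it ran from -1.43 to -0.62, the latter without mutant array C, and it no longer passed the screen without wild type podocyte array A (-1.05). Endothelial Efnb2 was 1932, 2444 and 2186 in mutants and 2311, 2408 and 2163 in wild type, which overlap.

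Poglut1, the glucosyltransferase that modifies the EGF repeats of Notch receptors, was the other gene lower in mutant mesangial cells. It had 172, 156 and 137 in mutants and 263, 316 and 256 in wild type, without overlap. The fold change was -0.84 (SE 0.13, adjusted p = 0.0269, limma). With single arrays left out the value ran from -0.92 to -0.75 and still passed the screen, but the adjusted p was over 0.05 without any 1 of the other 5 arrays (up to 0.0992, without mutant array B) and 0.0327 without wild type array C. The sum of 8 mesangial markers was also lower in these mutant arrays, 8229 to 9098 against 10620.3 to 11749, and that of 3 parietal epithelial markers higher, 317 to 435 against 214 to 240.5. The podocyte marker sum was lower as well, at 983 to 1046 against 1090 to 4595. The smooth muscle and juxtaglomerular sum was 1645, 2653 and 2950 in mutants and 1475, 1657 and 1372 in wild type, with overlap. Their part in the 2 values was not tested. With all arrays Efnb2 and Poglut1 are the 2 genes of the list with an adjusted p under 0.05 in mesangial cells.

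In podocytes the other genes past the screen were the protease Adam17, the endocytic adaptor Numb and the secreted endothelial protein Egfl7, a ligand-like modulator of Notch. Adam17 was 256, 136 and 169 in mutants and 316, 318 and 295 in wild type, -0.78 (SE 0.22). Numb was 454, 428 and 362 and 715, 709.6 and 569.8, -0.68 (SE 0.15), and Egfl7 185, 154 and 122 and 226, 252 and 211, -0.59 (SE 0.17). None of these groups overlapped, yet no adjusted p among the 48 tested was under 0.05 (limma; 0.154 for Numb, 0.213 for Adam17 and Egfl7). With all 18 arrays in 1 fit the adjusted p was 0.0158 for Adam17, 0.0218 for Numb, 0.0239 for Efnb2 and 0.12 for Egfl7 (limma). Egfl7, Numb and Efnb2 were called higher in wild type endothelium than in wild type podocytes, and the endothelial marker sums were lower in the same mutant arrays. The sums of the 8 mesangial markers were lower there too, at 3452, 3119 and 1140 in mutant and 4477, 3950 and 3595 in wild type podocyte arrays. The smooth muscle and juxtaglomerular sums and the parietal epithelial sums given above were higher in these mutant arrays, also without overlap. The part of any of these in the values was not tested. None of the 3 holds under every setting: Adam17 was -0.57 without mutant array B, though -1.03 without mutant array A (adjusted p = 0.0295, limma), and Egfl7 -0.44 without mutant array C and -0.52 without wild type array B; the values of -0.57, -0.44 and -0.52 are under a fold of 1.5. After repeated quantile normalization Numb was -0.55 and Egfl7 -0.52, also under that fold. The other cluster of Adam17 had the opposite sign, 0.31 (SE 0.16, adjusted p = 0.419, limma).

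In endothelium Hey2, the partner repressor of Hey1, was 64.7, 142 and 65.1 in mutants and 160.3, 157 and 146 in wild type. Mutant arrays A and C were under 100, and B lay near the wild type arrays but below them. The fold change was -0.87 (SE 0.28, unadjusted p = 0.0148, adjusted p = 0.182, limma). It was -0.68 without mutant array A and -0.69 without C, and then missed the screen, and -1.25 without mutant array B (adjusted p = 0.0044, limma). The promoter shown above for Hey2 holds the RBPJ core on both strands, which 25.6% of promoters hold at least once. Dtx3l, an E3 ubiquitin ligase of the Deltex family, was 303, 346 and 316 in mutants and 145, 139 and 151 in wild type, 1.15 higher (SE 0.09, adjusted p = 0.00211, limma). This transcript cluster and the other one listed for Dtx3l are both also listed for the neighbouring gene Parp9, so neither reads Dtx3l alone. The other cluster gave 269.9, 319 and 290.1 in mutants and 158, 162 and 129.99 in wild type, 0.97 higher (SE 0.12, adjusted p = 0.00998, limma). The 11 endothelial markers summed to 18335 to 18827 in mutant and 16516 to 18174 in wild type endothelial arrays. The mesangial sums were 742 to 1034 and 674 to 734, and the tubular sums 373 to 399 and 425 to 436, also without overlap; the part of these in the Hey2 and Dtx3l values was not tested.

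The same list was then compared between wild type cell types. Of 48 genes tested, 14 were called between endothelium and mesangium (7 in each direction), which is 29.2% against 17.5% of all clusters. Between podocytes and endothelium 12 were called, 25% against 21.5% of all, and between podocytes and mesangium 7, 14.6% against 15.1% of all. Higher in endothelium than in mesangium were Egfl7 (2.61), the ubiquitin ligase Neurl3 (1.69), Hey2 (1.64) and Ephb4, the receptor of ephrin-B2 (1.39). Among wild type arrays Neurl3 and Hey2 reached 100 only in endothelium, so they entered the fit through the type where they were high. Lower were Dtx3 (-1.07), the gamma-secretase subunit Psen2 (-0.998), the coactivator Kat2b (-0.95) and the DNA-binding partner Rbpj (-0.86). Podocytes were lower than endothelium in Egfl7 (-1.98), Neurl3 (-1.57), Ephb4 (-1.49) and Numb (-1.38), and higher in Rbpj (0.64) alone. Against mesangium, podocytes were lower in the Mastermind-like coactivator Maml2 (-1.61), in Dtx3 (-0.96), Psen2 (-0.88) and Dtx3l (-0.85), and higher in the corepressor Tle4 (0.60). Tle4 was under a fold of 1.5 without wild type mesangial array A (0.54) or podocyte array A (0.49), and with array medians subtracted (0.53). The other cluster of Maml2 gave -0.25 there (adjusted p = 0.15, limma), and that of Dtx3l -0.60 (adjusted p = 0.0174, limma). The other cluster of Rbpj did not reach 100 in any array.

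In mutant arrays 51 list genes were tested. Endothelium and mesangium differed in 16, with 15 higher and 1 lower in endothelium, 31.4% against 17.3% of all clusters. Over all clusters 1332 were higher and 929 lower there, and 992 and 1201 in wild type. Podocytes minus endothelium gave 14 (27.5% against 30.0%) and podocytes minus mesangium 7 (13.7% against 18.5%). Of the genes named in wild type, Egfl7, Neurl3, Ephb4, Hey2, Dtx3, Maml2, Numb and Tle4 were called in the same comparisons and direction. Egfl7 was at 3.05 and Ephb4 at 1.91 between endothelium and mesangium. Tle4 was under a fold of 1.5 without mutant mesangial array B (0.57) or podocyte array A (0.54). Hey2 entered the mutant fit only through endothelial array B, the 1 mutant array in which it reached 100, and its call adds no support to that in wild type. The Hey2 value of 0.82 had an adjusted p of 0.0494 (limma), and of 0.0571 to 0.14 when any 1 of the mutant mesangial or podocyte arrays was left out. With all arrays kept, the adjusted p was 0.107 with no signal minimum and 0.0545 with an intensity trend and robust estimation (limma). Rbpj was not called in mutants, at -0.38 between endothelium and mesangium (adjusted p = 0.186) and 0.06 between podocytes and endothelium (adjusted p = 0.821). Nor was Kat2b, at -0.47 (adjusted p = 0.0285, under a fold of 1.5), Psen2 at -0.58 between endothelium and mesangium (adjusted p = 0.0453), or Dtx3l at -0.30 between podocytes and mesangium (adjusted p = 0.389, limma). Psen2 was called there without mutant endothelial array A (-0.71), and between podocytes and mesangium in all mutant arrays (-0.84). Dtx3l was called without mutant podocyte array A (-0.59). Rbpj signals in podocytes were 315, 222 and 391 in mutant and 398, 353 and 361 in wild type arrays, and in endothelium 283, 303 and 285 and 263, 228 and 222.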

How the data were processed

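The authors extracted total RNA from sorted cells, amplified it in a single round by Ribo-SPIA, labelled it with biotin and hybridised it to Affymetrix Mouse Gene 1.0 ST arrays, per the labels and the study's methods; the series record names exon arrays and another program. The authors summarised probes per transcript cluster by RMA in Expression Console and deposited the signals as linear intensity values, with a header that names the mm9 build. A further 18 columns of normalized values were not used here.

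Intensities were taken to log2 and tested with limma 3.58.1 (lmFit, eBayes, two-sided) in R 4.3.3, as in the methods' moderated test, after clusters that stayed below 100 in every array of the fit had been dropped. Genotype fits used 6 arrays, cell type fits 9 and tests of a difference between genotype effects 18. P-values were adjusted by Benjamini-Hochberg over all clusters tested; the code was tested on simulated data. Columns were placed in groups by reporter and genotype, since their numbers match no title. The precision of each value is limited by 3 arrays a group, and array background compresses low signals.

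The 10 genes, the list of 63 pathway genes and the marker lists were chosen with earlier results of these data known. Of that list the text names each gene past the genotype screen and, per wild type cell type comparison, the 4 called genes with the largest difference in each direction. A gene with several clusters was read from the one with the highest mean signal. Alternatives covered the signal minimum, normalization, variance model, call rule, choice of cluster and each array left out. A lone pair of arrays in a group then shares the spread estimate of the fit. Promoters come from RefSeq, GRCm38.p6. Protein comparisons were not made here. The reporter of the podocyte sort is not reported here.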

Additional observations from a re-analysis of the deposited data

Results flagged for a closer look

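Of the differences between genotype effects, 4, all of genes from the wider pathway list, passed an adjusted p of 0.05 in limma on 18 arrays. The genotype effect of Ephb4, the ephrin-B2 receptor, was -0.878561 on the log2 scale in podocytes minus endothelium (adjusted p = 0.0237), with effects of -0.35 and 0.53 in the single cell types. That of Adam10, the protease of ligand-induced Notch cleavage, was -0.723146 (adjusted p = 0.0412), with effects of -0.43 and 0.29. For Dtx1, a Deltex ubiquitin ligase, it was 0.607139 (adjusted p = 0.0416), with effects of 0.27 and -0.33 and signals near the minimum of 100. Dtx3l, whose clusters are shared with Parp9, differed by 1.48427 in endothelium minus mesangium (adjusted p = 0.0261), with effects of 1.15 and -0.34. Its other cluster gave 1.06 (adjusted p = 0.144), which leaves no call, as does fitting with no signal minimum (adjusted p = 0.0508). None of the 10 Notch genes did.

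The 3 calls in podocytes minus endothelium are 5.77% of the list genes tested, against 2.11% of all clusters, and the 1 in endothelium minus mesangium is 1.92% against 1.07%. With single arrays left out the first count ran from 0 to 12 (12 without mutant podocyte array A) and the second from 0 to 3; with array medians subtracted the first was 9. With 1 array left out, the largest adjusted p was 0.0639 for Ephb4, 0.0968 for Adam10, 0.0997 for Dtx1 and 0.0747 for Dtx3l (limma).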

How the results depend on the processing

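The count of Notch genes called was 0 in each genotype comparison and each test between genotype effects under all alternatives run. Between podocytes and mesangium it moved with the call rule: by adjusted p alone it was 6 in wild type and 6 in mutant arrays, and by a fold over 2 with an unadjusted p it was 1 and 0. In mutant arrays it was 1 without a signal minimum and 1 to 4 with single arrays left out. Between endothelium and mesangium a fold over 2 left 3 in wild type and 3 in mutant arrays. Of the wider list, a fold over 2 left 1 gene called in each genotype comparison, the adjusted p alone 0 in podocytes and 1 in endothelium, and repeated quantile normalization 2 in podocytes. Single arrays left out gave 1 to 3 in endothelium. Between wild type cell types the adjusted p alone gave 16 list genes in podocytes minus mesangium and 22 in podocytes minus endothelium. A fold over 2 gave 1 and 7 there, and 6 in endothelium minus mesangium. In mutant arrays the adjusted p alone gave 12 and 23. A fold over 2 gave 2 in mutant podocytes minus mesangium and 8 in mutant endothelium minus mesangium. The cause was not tested, beyond what a stricter rule implies.

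Of 18 called values of list genes with a second cluster tested, 6 had the opposite sign there. They were Adam17 in the podocyte genotype comparison (0.31) and, in mutants, in podocytes minus endothelium (0.39) and endothelium minus mesangium (-0.08); Mib1 in podocytes minus endothelium in wild type (0.18) and minus mesangium in mutants (0.07); and Maml2 in endothelium minus mesangium in wild type (0.18). None passed a call in the second cluster, though the Adam17 value of 0.39 missed it by fold alone (adjusted p = 0.0262, limma). Among the 18, only values of Dtx3l were also called in the second cluster. No called value of Adam17, Maml2 or Mib1 was. The cluster read for Mib1 is also listed for Tgfbr2, so its called values do not read Mib1 alone. Its second cluster passed no call in any comparison. The sign changes that follow are of values that had passed no call. Repeated quantile normalization gave -0.0178 for the genotype difference of Notch1 in endothelium and -0.0038 for Dll4 between wild type podocytes and mesangium. Subtracting array medians gave -0.0371 for that Dll4 value, -0.0034 for Hes1 between wild type endothelium and mesangium, and -0.0705 for Rbpj between mutant podocytes and endothelium. With single arrays left out, genotype differences in mesangium ran from -0.1176 to 0.0050 for Notch1, from -0.0034 to 0.0954 for Notch2 and from -0.3840 to 0.0006 for Heyl, and in podocytes from -0.1767 to 0.0591 for Notch3. Between wild type cell types Dll4 in podocytes minus mesangium ran from -0.0340 to 0.1455 and Hes1 in endothelium minus mesangium from -0.0481 to 0.1320. Between mutant cell types Notch4 in podocytes minus mesangium ran from -0.0543 to 0.0381 and Rbpj in podocytes minus endothelium from -0.1316 to 0.2771.

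No paired analysis was possible because the sample titles carry running numbers that no groups share, and the table's columns carry numbers that match no title. Signals near or under 100 limit Dll4, Jag1 and Jag2. They also limit Notch2 outside podocytes, Notch3 in endothelium, Hey1 and Notch4 outside endothelium, Heyl outside mesangium, and Notch1 and Hes1 in podocytes.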
